A study of Mus musculus with 4 samples.

Results

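Semaphorins, plexins and a small set of other guidance genes were followed in endothelial cells of the mouse heart, in libraries labelled ECp53KO and in wild-type controls. The members are all rows of the deposited gene table whose symbol begins with Sema and a class number from 3 to 7 or with Plxn and a letter from a to d, together with Slit2, Slit3, Robo1, Robo4, Unc5b and Ntn4. Neuropilins were left out by this rule. It found 36 of 24346 rows: 20 semaphorins, 9 plexins, 6 other cues and receptors, and Plxna4os1, a noncoding RNA annotated on the strand opposite to Plxna4. Of these, 35 are protein-coding genes, and 15 averaged 1 FPKM or more across the 4 libraries and entered the test.

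ECp53KO (2 libraries, ECp53KO_170 and ECp53KO_172) is not spelled out in the labels and is taken here, from the title of the series, to be a loss of p53 in the endothelium. The Ctrl libraries (2, Ctrl_178 and Ctrl_182) are labelled wild type. All mice are labelled young and of C57BL/6 background, and the cells were sorted by flow cytometry from heart and used without culture. The labels name neither the deleted exons nor the driver of a deletion, and do not say in so many words that each library is a separate mouse, so the p-values measure the spread between these libraries, which may be technical. In bulk RNA, fewer cells of a type and less RNA per cell cannot be told apart.

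Semaphorins are secreted, membrane-spanning or lipid-anchored proteins that steer migrating cells and growing axons. Plexins are their main receptors, and most secreted class 3 semaphorins reach plexins through a neuropilin held in the same complex. Slits act on roundabout (Robo) receptors, and netrins on receptors that include the Unc5 family. In blood vessels these cues are known for setting where sprouts grow and how tightly the endothelium is sealed. In human cells SEMA3B, SEMA3F and UNC5B have been described as transcriptional targets of p53.

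Values are FPKM, fragments scaled by gene length and sequencing depth, as the authors deposited them, so levels of different genes can be set side by side. Estimated depth was about 11000000 and 9700000 fragments for ECp53KO_170 and for ECp53KO_172, and about 11000000 and 22000000 for Ctrl_178 and for Ctrl_182, the order kept for all pairs of values below. Trp53, which encodes p53 on chromosome 11 (69580348 to 69591873, build GRCm38), was at 4.41 and 2.45 FPKM in ECp53KO cells and at 52.1 and 28.8 FPKM in Ctrl cells, so the target was lower in both libraries labelled ECp53KO. On the log2 scale it differed by -3.20 ± 0.36 (SE), and limma gave an adjusted p of 0.146 over all genes tested. The 15 pan-endothelial markers, Robo4 among them, summed to 7265 and 7202 FPKM in the ECp53KO libraries and to 7118 and 7097 FPKM in the Ctrl libraries. Of these 15, 4 were higher and 4 lower in both ECp53KO libraries, against 19.1% and 16.8% of all tested genes. By limma 1.97% of all tested genes were higher and 2.82% lower at an unadjusted p under 0.05. Of the 15 markers, none had such a p and none passed the adjusted threshold. Their defining genes were Cdh5, which encodes VE-cadherin (982 and 958 FPKM in ECp53KO cells, 1098 and 1022 in Ctrl), Kdr, the main VEGF receptor (631 and 608 FPKM in ECp53KO cells, 573 and 435 in Ctrl), and the adhesion gene Pecam1 (975 and 863 FPKM in ECp53KO cells, 858 and 906 in Ctrl). Of the markers of other cells, the lymphocyte gene Cd3e and the Schwann cell gene Sox10 were listed at 0 in every library.

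Heart endothelial cells carried a restricted set of guidance genes, and none of the tested ones passed the test between ECp53KO and Ctrl. The semaphorins averaging 1 FPKM or more were Sema7a, Sema3g, Sema4c, Sema3f, Sema6a, Sema6b and Sema6d, and the plexins were Plxnd1, Plxna2, Plxna1, Plxna4 and Plxnb2. Robo4, Unc5b and Ntn4 completed the 15. By limma 0 of the 15 rose and 0 fell at an adjusted p under 0.05, as did 0.0265% and 0.0882% of all 11332 genes tested, and 0 were higher and 0 lower at an unadjusted p under 0.05, against 1.97% and 2.82% of all genes. Their limma adjusted p-values ran from 0.864 to 0.984.

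The fold changes of the members leaned to lower values in ECp53KO, but this rested on 1 library. Of the 15, 13 had a negative log2 fold change, which 48.3% of all tested genes had, and the median was -0.22 against 0.012 over all tested genes. In Sema3g and Sema6b both ECp53KO libraries lay below both controls, 2 of 15 members against 16.8% of all tested genes. No member was higher in both (19.1% of all tested genes were), and in the other 13 the groups overlapped. Without ECp53KO_170 the median was 0.050 with 5 of 15 negative, and without ECp53KO_172 it was -0.51 with all 15 negative.

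**Figure D1:**
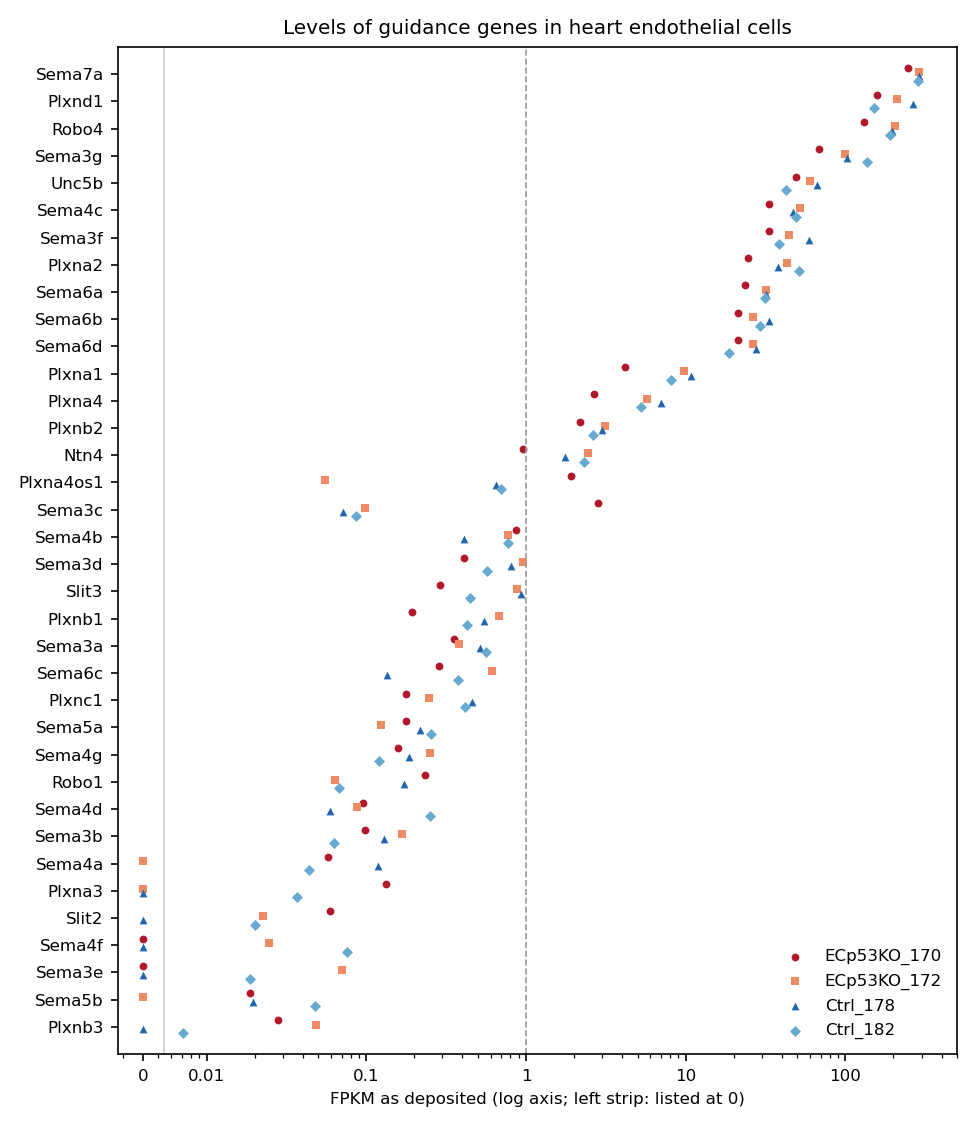
FPKM of all 36 members in each library (horizontal log axis, 1 row per gene, ordered by the mean over 4 libraries; circles and squares are ECp53KO, triangles and diamonds Ctrl, and the left strip holds values listed at 0). The dashed line marks 1 FPKM. Levels run from Sema7a at 248 to 289 FPKM down to values near 0, and Sema3c stands at 2.84 FPKM in ECp53KO_170 but under 0.1 FPKM in the other libraries.

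The promoters of the 5 members with the highest mean levels are shown because these genes lead the levels described next. They are RefSeq sequences (GRCm38.p6) of the 250 bases before a transcript start, written 5′ to 3′ on the strand of the gene. Capitals mark AGGAAG or CCGGAA on either strand, 2 forms of the core bound by ETS factors such as Erg, a family with known roles in endothelial gene expression. The windows are chr9:57939862-57940111 (+) for Sema7a, chr6:115995006-115995255 (-) for Plxnd1, chr9:37401722-37401971 (+) for Robo4, chr14:31217623-31217872 (+) for Sema3g and chr10:60831582-60831831 (-) for Unc5b. By the gene positions given below, the windows of Sema7a and Plxnd1 lie inside the gene, and that of Robo4 overlaps its beginning. Those of Sema3g and Unc5b end where the gene begins.
Sema7a: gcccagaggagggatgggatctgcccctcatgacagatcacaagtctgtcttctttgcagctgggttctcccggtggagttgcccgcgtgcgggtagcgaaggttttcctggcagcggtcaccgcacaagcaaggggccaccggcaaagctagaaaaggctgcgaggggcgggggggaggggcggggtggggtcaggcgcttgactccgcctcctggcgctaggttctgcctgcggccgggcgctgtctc
Plxnd1: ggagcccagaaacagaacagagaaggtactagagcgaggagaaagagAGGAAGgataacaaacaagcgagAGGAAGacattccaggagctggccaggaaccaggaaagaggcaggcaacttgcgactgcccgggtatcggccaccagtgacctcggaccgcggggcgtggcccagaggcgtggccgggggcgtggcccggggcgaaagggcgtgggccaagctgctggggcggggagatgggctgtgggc
Robo4: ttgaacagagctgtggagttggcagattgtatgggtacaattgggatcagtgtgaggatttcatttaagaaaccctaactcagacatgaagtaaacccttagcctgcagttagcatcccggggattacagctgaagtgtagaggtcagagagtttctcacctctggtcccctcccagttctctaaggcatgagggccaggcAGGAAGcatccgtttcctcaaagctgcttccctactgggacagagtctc
Sema3g: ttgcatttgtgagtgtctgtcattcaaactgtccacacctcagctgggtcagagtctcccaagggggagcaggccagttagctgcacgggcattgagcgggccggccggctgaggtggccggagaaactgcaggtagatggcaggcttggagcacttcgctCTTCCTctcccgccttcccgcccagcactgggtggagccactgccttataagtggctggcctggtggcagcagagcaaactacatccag
Unc5b: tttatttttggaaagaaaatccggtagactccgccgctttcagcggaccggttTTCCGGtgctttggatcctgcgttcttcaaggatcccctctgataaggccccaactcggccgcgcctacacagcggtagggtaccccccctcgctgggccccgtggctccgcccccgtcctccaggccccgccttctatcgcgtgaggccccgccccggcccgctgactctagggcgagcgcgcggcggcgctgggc
AGGAAG occurred 2 times in the Plxnd1 window and once each in those of Robo4 and Sema3g, CCGGAA once in that of Unc5b, and neither in that of Sema7a. RefSeq promoters were matched for 30 of the 36 members, 11 of them tested. Over the windows of the tested members, some with several starts, AGGAAG was present in 5 of 15 (33.3%), against 11 of 26 (42.3%) for members below 1 FPKM and 29.5% of all 32851 windows. CCGGAA was present in 1 of 15 (6.67%), against 4 of 26 (15.4%) and 12.03% of all windows. The p53 half-site, searched on both strands by its consensus, was in 0 of 15 windows of tested members, in 3 of 26 of the members below 1 FPKM and in 7.13% of all windows. These are matches of letters within 250 bases and describe no binding.

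Among the ligands, Sema7a had the highest level of all members. It encodes a semaphorin anchored to the membrane by a lipid, which signals through beta-1 integrins and plexin C1 (chromosome 9, 57939596 to 57962865, GRCm38). It stood at 248 and 289 FPKM in ECp53KO cells and at 288 and 283 FPKM in Ctrl cells. ECp53KO_170 was lowest, and ECp53KO_172 lay above both controls. The log2 fold change was -0.092 ± 0.19 (SE), with a 95% interval of -0.58 to 0.39 and a limma adjusted p of 0.935. Plxnc1, which encodes plexin C1, was at 0.178 and 0.246 FPKM in ECp53KO cells and at 0.458 and 0.416 FPKM in Ctrl cells, while the integrin gene Itgb1 was at 331 and 308 FPKM in ECp53KO cells and 324 and 307 FPKM in Ctrl cells. The level of Sema7a was thus close to that of the integrin subunit and far above that of the plexin gene.

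The secreted class 3 semaphorins were represented by Sema3g and Sema3f, both ligands of neuropilin-2. Sema3g, known for its arterial endothelial expression (chromosome 14, 31217873 to 31230352), stood at 68.7 and 99.9 FPKM in ECp53KO cells and at 102 and 136 FPKM in Ctrl cells. Both ECp53KO libraries were below both controls, but ECp53KO_172 was only just below Ctrl_178. It averaged 84.3 ± 22.1 FPKM in ECp53KO cells and 119 ± 24.1 FPKM in Ctrl cells (SD, n = 2 each), and the log2 fold change was -0.50 ± 0.26 (SE), with a 95% interval of -1.16 to 0.16 and a limma adjusted p of 0.864. Xist, the transcript that marks an inactive X chromosome, was at 0.0230 and 23.1 FPKM in ECp53KO cells, against 0.0352 and 23.9 FPKM in Ctrl cells, so each group held 1 library of each kind. At like Xist level, Sema3g was at 68.7 FPKM in ECp53KO_170 against 102 in Ctrl_178, and at 99.9 in ECp53KO_172 against 136 in Ctrl_182. With Xist as a covariate its unadjusted limma p was 0.0425, the only one under 0.05 among the 15 (2.73% of all tested genes were lower at that level), and the adjusted p was 0.903. Plxna2 was next in that fit, with an unadjusted limma p of 0.0771 (adjusted p = 0.903), and was likewise lower in ECp53KO at like Xist level. The unadjusted limma p of Sema6b was 0.113 with the covariate. The covariate leaves fewer residual degrees of freedom than the main fit.

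Sema3f (chromosome 9, 107681499 to 107710475) stood at 33.0 and 44.6 FPKM in ECp53KO cells and at 58.9 and 38.3 FPKM in Ctrl cells. The spread within each group covered the difference between them. The log2 fold change came to -0.30 ± 0.27 (SE), with a 95% interval of -0.99 to 0.39 and a limma adjusted p of 0.871.

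Sema4c, a membrane-spanning ligand of plexin B2, was the one class 4 semaphorin above 1 FPKM. It stood at 33.2 and 51.9 FPKM in ECp53KO cells and at 46.8 and 49.0 FPKM in Ctrl cells. ECp53KO_172 held the highest value and ECp53KO_170 the lowest. The log2 fold change was -0.20, with a 95% interval of -0.82 to 0.42 and a limma adjusted p of 0.893.

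Class 6 semaphorins also span the membrane and bind class A plexins without a neuropilin. Sema6a, a ligand of plexins A2 and A4, was at 23.6 and 31.8 FPKM in ECp53KO cells and at 31.9 and 31.6 FPKM in Ctrl cells. ECp53KO_170 alone was low, and the other 3 libraries lay within 31.6 to 31.9 FPKM. Sema6b, a ligand of plexin A4, was at 21.1 and 26.3 FPKM in ECp53KO cells and at 33.2 and 29.2 FPKM in Ctrl cells. Both ECp53KO libraries were below both controls, and the means were 23.7 ± 3.64 FPKM for ECp53KO and 31.2 ± 2.86 FPKM for Ctrl (SD, n = 2 each). On the log2 scale the difference, -0.39 ± 0.18 (SE), had a 95% interval of -0.84 to 0.065 and the smallest unadjusted limma p of the members (0.0792, adjusted p = 0.864). Sema6d, a ligand of plexin A1 known for its part in shaping the chick heart tube, was at 21.1 and 26.3 FPKM in ECp53KO cells and at 27.7 and 18.6 FPKM in Ctrl cells. The groups overlapped fully, and limma gave a log2 fold change of 0.052 (adjusted p = 0.974).

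Among the receptors, Plxnd1 had the highest mean over the 4 libraries, although in Ctrl_182 it lay below Robo4. Plexin D1 is a receptor of endothelial cells that guides vessel patterning and binds semaphorin 3E without a neuropilin (chromosome 6, 115954811 to 115995339). It stood at 157 and 212 FPKM in ECp53KO cells and at 265 and 151 FPKM in Ctrl cells, so that the 2 controls held both the highest and the lowest value. The log2 fold change was -0.13 ± 0.33 (SE), with a 95% interval of -0.97 to 0.70 and a limma adjusted p of 0.944. Its ligand gene Sema3e was listed at 0 and 0.0702 FPKM in ECp53KO cells and at 0 and 0.0186 FPKM in Ctrl cells, about 5 fragments at most in a library.

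Class A plexins are the usual partners of neuropilins. Plxna2 (chromosome 1, 194619791 to 194816869) was at 24.6 and 43.0 FPKM in ECp53KO cells and at 37.6 and 51.0 FPKM in Ctrl cells. Plxna1 was at 4.20 and 9.78 FPKM in ECp53KO cells and at 10.9 and 8.14 FPKM in Ctrl cells, and Plxna4 at 2.67 and 5.70 FPKM in ECp53KO cells and at 7.04 and 5.25 FPKM in Ctrl cells. In each of these genes ECp53KO_170 was lowest and ECp53KO_172 lay between the controls. Their log2 fold changes were -0.42, -0.48 and -0.51, the last with the lower end of its 95% interval at -1.38 and the upper end at 0.35, and their limma adjusted p-values were all 0.864. Without ECp53KO_170 the log2 fold changes of Plxna2 and Plxna4 were -0.026 and -0.081, and that of Plxna1 was 0.050. The fourth class A gene, Plxna3, did not exceed 0.133 FPKM in any library.

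Plxnb2, a receptor for class 4 semaphorins, was at 2.18 and 3.12 FPKM in ECp53KO cells and at 2.99 and 2.62 FPKM in Ctrl cells (limma adjusted p = 0.960). The groups overlapped, and its level was below that of its ligand Sema4c in every library. Plxnb1, the receptor of semaphorin 4D, was at 0.194 and 0.679 FPKM in ECp53KO cells and at 0.545 and 0.428 FPKM in Ctrl cells, and Plxnb3, a receptor of semaphorin 5A, did not exceed 0.0482 FPKM.

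The neuropilin genes, which the rule leaves out, are given beside the class A plexins they pair with. Nrp1 was at 287 and 267 FPKM in ECp53KO cells and at 292 and 203 FPKM in Ctrl cells, and Nrp2 at 73.6 and 85.9 FPKM in ECp53KO cells and at 123 and 71.1 FPKM in Ctrl cells. The groups overlapped in both, with limma adjusted p-values of 0.900 and 0.896.

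Among the members, the roundabout and netrin branches were carried by their endothelial receptors, with little of their Slit ligands. Robo4, a receptor largely restricted to endothelium that stabilises vessels (chromosome 9, 37401902 to 37414023), was at 131 and 205 FPKM in ECp53KO cells and at 196 and 191 FPKM in Ctrl cells. ECp53KO_170 was low and ECp53KO_172 highest. The log2 fold change came to -0.24 ± 0.26 (SE), with a 95% interval of -0.90 to 0.42 and a limma adjusted p of 0.882. Robo1, which binds Slits directly, did not exceed 0.232 FPKM. The roundabout gene Robo2, outside the members, was above that level and was tested. It averaged 2.12 FPKM in ECp53KO cells and 1.58 FPKM in Ctrl cells. Both its ECp53KO values were above both controls, as for 19.1% of all tested genes. Its log2 fold change was 0.28, with a limma adjusted p of 0.870. Slit2 did not exceed 0.0592 FPKM, and Slit3 was at 0.289 and 0.878 FPKM in ECp53KO cells and at 0.938 and 0.448 FPKM in Ctrl cells.

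Unc5b, a netrin receptor that also binds Robo4 (chromosome 10, 60762594 to 60831581), was at 49.4 and 60.1 FPKM in ECp53KO cells and at 66.2 and 42.7 FPKM in Ctrl cells. Both ECp53KO values lay between the controls. It averaged 54.8 ± 7.58 FPKM in ECp53KO cells and 54.5 ± 16.7 FPKM in Ctrl cells (SD, n = 2 each), and the log2 fold change was 0.035 with a 95% interval of -0.62 to 0.69 (limma adjusted p = 0.984). Of the genes described as p53 targets in human cells, Unc5b and Sema3f did not pass, and Sema3b did not exceed 0.167 FPKM in any library, about 6 fragments. Trp53 itself did not pass in the same fit (log2 fold change -3.20, limma adjusted p = 0.146). Not passing therefore does not show that these genes were unchanged. Ntn4, a netrin of basement membranes, was at 0.959 and 2.46 FPKM in ECp53KO cells and at 1.77 and 2.32 FPKM in Ctrl cells, and its log2 fold change was -0.22 (adjusted p = 0.912 by limma).

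In the order of levels, each gene was set against the next one only. Genes that are not neighbours can be apart, as were Sema7a, lowest at 248 FPKM, and Robo4, highest at 205. Ranges over the 4 libraries overlapped between each neighbour in the order of Sema7a, Plxnd1, Robo4 and Sema3g, then again from Unc5b through Sema4c, Sema3f, Plxna2, Sema6a and Sema6b to Sema6d, and from Plxna1 through Plxna4 and Plxnb2 to Ntn4. The ranges were apart between Sema3g, with a lowest value of 68.7 FPKM, and Unc5b, with a highest of 66.2. They were also apart between Sema6d, with a lowest value of 18.6 FPKM, and Plxna1, with a highest of 10.9. Mean levels of tested members spanned a factor of 148.

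**Figure D2:**
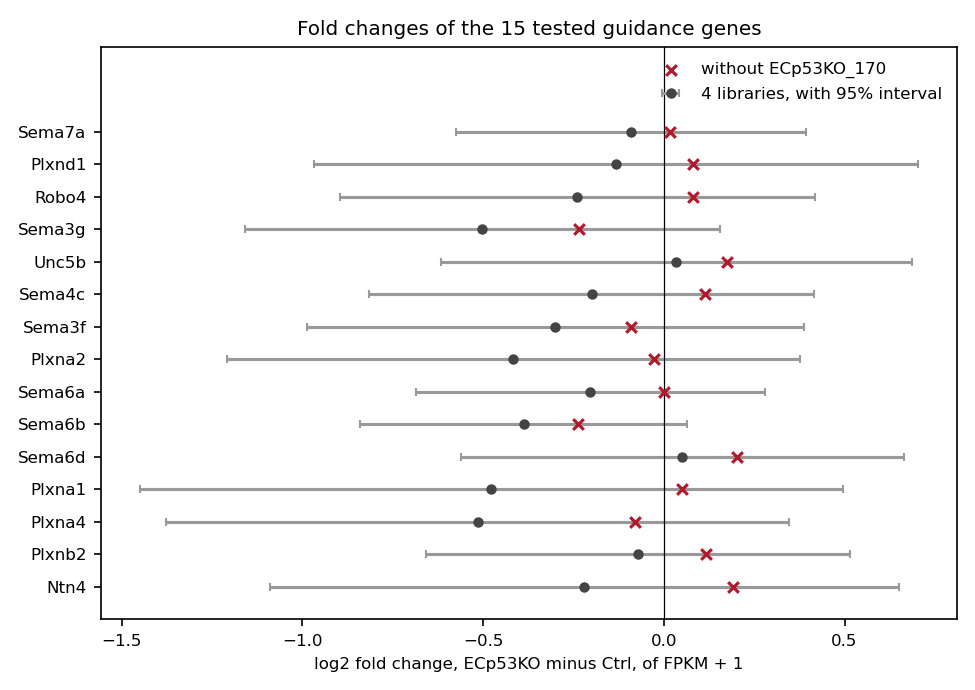
Log2 fold change (horizontal axis, ECp53KO minus Ctrl, of FPKM + 1) of each tested member, in order of level. Circles with bars are fits to 4 libraries with their 95% interval, and crosses are the fit without ECp53KO_170. Every interval includes 0, and the crosses lie nearer to 0 or above it, with a median of 0.050 against -0.22.

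The lean to lower values lay in ECp53KO_170. Against the mean of the other 3 libraries on the log2(FPKM + 1) scale, all 15 members were lower in ECp53KO_170, as were 46.3% of all tested genes, with a median shift of -0.48 against 0.032 over all tested genes. In ECp53KO_172 the median shift of the members was 0.21, with 1 of 15 below, as were 51.6% of all tested genes. In Ctrl_178 and Ctrl_182 it was 0.18 and 0.10. The shifts of a gene cancel out over the libraries, so low values in ECp53KO_170 by themselves raise the shifts of the others. Set against the Ctrl libraries alone, ECp53KO_172 had a median log2 fold change of 0.050. ECp53KO_170 held the lowest value of 12 members, as of 30.8% of all tested genes, and Ctrl_182 that of the other 3, which were Plxnd1, Unc5b and Sema6d.

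Transcript length moved with this shift. Members have long transcripts, with a median of 5869 nucleotides in GENCODE M21 against 3005 over all tested genes, and the shift of genes in ECp53KO_170 fell with length (Spearman's rho -0.43 over 11269 genes, a description, since genes share their libraries). After taking out the trend with length in each library, the median shift of the members in ECp53KO_170 was -0.44 in place of -0.48. Of the 15, 13 were lower there, as were 45.4% of all tested genes. The trend taken out depends on length alone, so how far each member moved was set by its length. The median does not show this. The shift of Plxna4, the longest member (12877 nucleotides), went from -0.92 to -0.54. That of Sema7a, the shortest (3297 nucleotides), went from -0.21 to -0.19. The median fold change of the members was then -0.19.

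**Figure D3:**
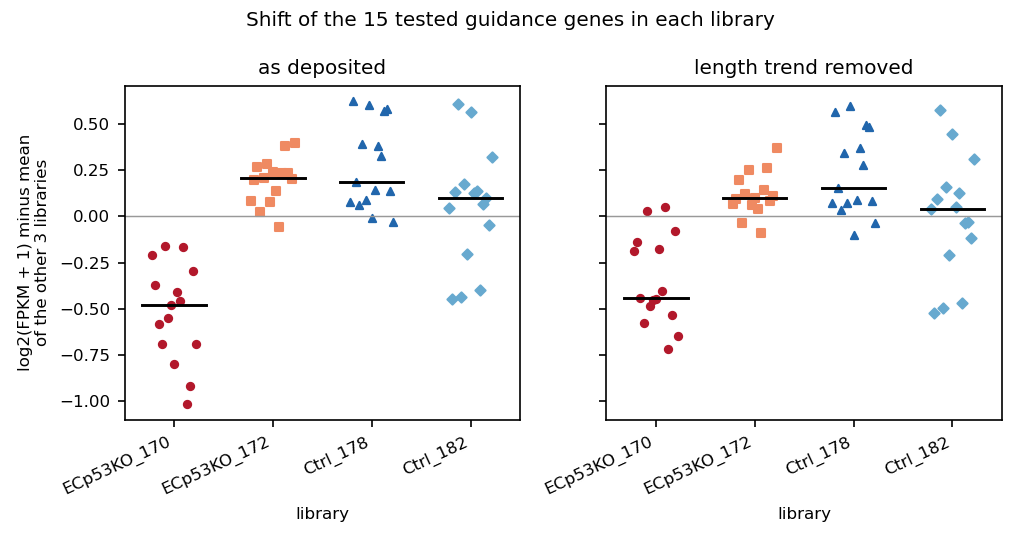
Shift of each tested member in each library (vertical axis, log2(FPKM + 1) minus the mean of the other 3 libraries), as deposited and with the length trend removed. Each point is a gene and each bar the median. The medians in ECp53KO_170 are -0.48 and -0.44. Those of the other libraries lie above 0, in part because the shifts of a gene cancel out over the libraries.

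The other 21 members had means under 1 FPKM and were outside the test. Of these, 19 stayed under 1 FPKM in every library and 7 were listed at 0 in at least 1. They include class 3 ligands of neuropilin complexes (Sema3a at 0.353 and 0.380 FPKM in ECp53KO cells and 0.518 and 0.564 in Ctrl, and Sema3d at 0.412 and 0.962 in ECp53KO cells and 0.805 and 0.568 in Ctrl). All class 4 members other than Sema4c were among them. Sema4b led these at 0.870 and 0.775 FPKM in ECp53KO cells and 0.408 and 0.772 FPKM in Ctrl cells, and Sema4d, a semaphorin of lymphocytes and platelets, did not exceed 0.251 FPKM. Sema5a, Sema4g, Sema4a, Sema4f and Sema5b reached at most 0.253 FPKM, and Sema6c at most 0.610 FPKM.

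With no filter on low values, 16809 genes were tested and again 0 members passed in either direction. Plxnc1 had the only unadjusted limma p under 0.05 among the 36 (0.0288, adjusted p = 0.853), a level at which 3.22% of all genes in that fit were lower. Both ECp53KO libraries lay below both controls, with estimates of about 14 and 17 fragments in ECp53KO and about 37 and 67 in Ctrl. Plxna4os1 was at 1.91 and 0.0548 FPKM in ECp53KO cells and at 0.646 and 0.702 FPKM in Ctrl cells, with the ECp53KO libraries on either side of the controls. It lies within the span of Plxna4 on chromosome 6, and without strand in the libraries reads of the 2 cannot be told apart.

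Sema3c stood apart in 1 library. It encodes a secreted semaphorin known for its part in dividing the cardiac outflow tract (chromosome 5, 17574816 to 17730268). It was at 2.84 and 0.0984 FPKM in ECp53KO cells and at 0.0714 and 0.0869 FPKM in Ctrl cells. ECp53KO_170 was 28.9 times the next library, with an estimated 171.7 fragments against 4 to 10 in the others, while ECp53KO_172 was level with the controls. Its limma adjusted p with no filter was 0.853.

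By a rule chosen after the values were seen, genes other than small RNA loci with at least 2 FPKM in a library and at least 10 times the level of each other library (taken as at least 0.1) were counted. ECp53KO_170 had 5 and ECp53KO_172 had 3 such genes, against 2 for Ctrl_178 and 3 for Ctrl_182. The 5 were Sema3c, the globin genes Hba-a2 (96.4 and 3.97 FPKM in ECp53KO cells, 0.387 and 0.136 in Ctrl) and Hbb-bs (66.9 and 0.0221 FPKM in ECp53KO cells, 0.0136 and 0.00621 in Ctrl), the airway secretory gene Scgb1a1 (3.39 FPKM in ECp53KO_170 and listed at 0 in the other 3) and the pseudogene Gm10416. The globin genes have near-identical copies, so their values are uncertain.

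The summed erythroid, cardiomyocyte and mural markers were also highest in ECp53KO_170. So were the pan-endothelial and platelet sums, and the sum over all genes (732051 FPKM, against 603783 to 617026 in the other libraries). None of these sums was adjusted for the trend with transcript length, by which shorter genes read higher in ECp53KO_170. The erythroid list, of which 8 of 9 genes are in the table, summed to 457 and 95.7 FPKM in ECp53KO cells and to 64.5 and 37.4 FPKM in Ctrl cells. All 6 tested erythroid markers were higher in both ECp53KO libraries, as were 19.1% of all tested genes, and 3 of the 6 had an unadjusted limma p under 0.05 (1.97% of all tested genes). The 15 cardiomyocyte markers summed to 496 and 282 FPKM in ECp53KO cells and to 274 and 257 FPKM in Ctrl cells. Of the 13 tested, 12 had fold changes above 0. In both ECp53KO libraries 3 were higher, and 1 had an unadjusted limma p under 0.05. The defining gene Myh6 was at 4.55 and 2.37 FPKM in ECp53KO cells and 4.42 and 3.64 in Ctrl. The other defining gene, Tnnt2, was at 36.0 and 23.5 FPKM in ECp53KO cells and 24.2 and 25.3 in Ctrl. The atrial gene Nppa was at 57.0 and 7.33 FPKM in ECp53KO cells and 8.55 and 13.3 in Ctrl. The 12 pericyte and smooth muscle markers summed to 188 and 153 FPKM in ECp53KO cells and to 102 and 121 FPKM in Ctrl cells. All 10 tested mural markers had fold changes above 0, as had 5857 of all 11332 tested genes. Of the 10, 4 were higher in both ECp53KO libraries (19.1% of all tested genes) and 3 had an unadjusted limma p under 0.05 (1.97%). The defining mural gene Myh11 was highest in ECp53KO_172 (4.50 and 6.69 FPKM in ECp53KO cells, 3.43 and 4.78 in Ctrl). The other, Pdgfrb, was highest in ECp53KO_170 (3.91 and 3.45 FPKM in ECp53KO cells, 2.54 and 3.68 in Ctrl). The part of such cells in the value of Sema3c and in the shift of the other members was not tested.

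**Figure D4:**
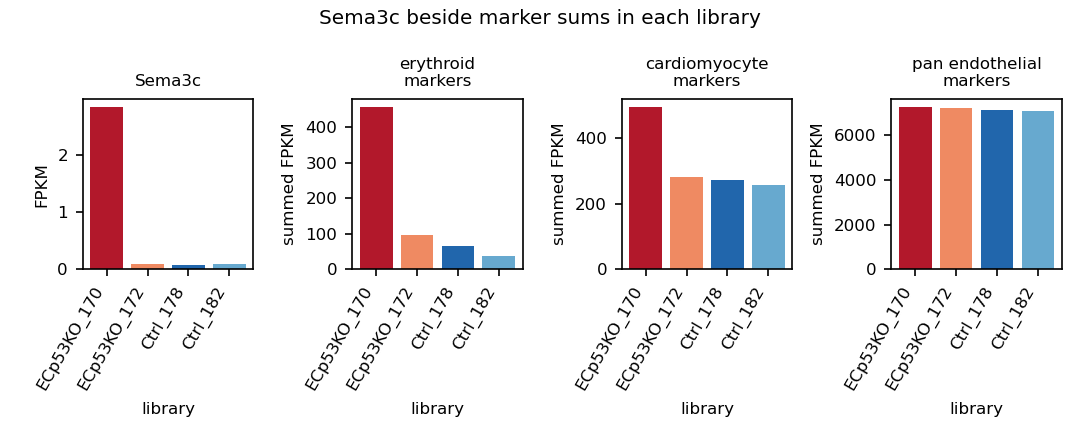
FPKM of Sema3c and summed FPKM of the erythroid, cardiomyocyte and pan-endothelial marker lists (vertical axes, each from 0) in each library. Sema3c, at 2.84 FPKM, and the erythroid sum, at 457 FPKM, stand out in ECp53KO_170, while the endothelial sums lie between 7097 and 7265 FPKM.

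Fibroblast markers summed to 77.1 and 75.9 FPKM in ECp53KO cells and to 84.2 and 81.8 FPKM in Ctrl cells, and lymphatic endothelial markers, Nrp2 among them, to 122 and 149 FPKM in ECp53KO cells and 191 and 124 FPKM in Ctrl cells. Endocardial markers summed to 70.6 and 87.2 FPKM in ECp53KO cells and to 98.4 and 113 FPKM in Ctrl cells. All 6 tested endocardial markers had fold changes below 0, with 4 under both controls in both ECp53KO libraries (16.8% of all tested genes were) and 2 at an unadjusted limma p under 0.05 (2.82% of all). Of all tested genes 48.3% had a negative fold change. The lists for macrophages (8.23 to 11.01 FPKM in ECp53KO cells and 7.42 to 13.2 in Ctrl), platelets (2.68 to 13.8 in ECp53KO cells and 5.01 to 7.98 in Ctrl), lymphocytes (0.0646 to 1.32 in ECp53KO cells and 0.970 to 1.86 in Ctrl) and Schwann cells and neurons (0.950 to 0.990 in ECp53KO cells and 0.742 to 0.952 in Ctrl) were low in both groups.

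Guidance genes outside the rule did not pass the test either. Of 20 related cues and receptors, 7 could be tested and by limma 0 rose and 0 fell, with none at an unadjusted p under 0.05. Of the 7, 1 was higher and 4 were lower in both ECp53KO libraries, against 19.1% and 16.8% of all tested genes, and the median log2 fold change was -0.20. The 3 with the smallest p were Unc5a, a netrin receptor (1.42 and 1.34 FPKM in ECp53KO cells, 3.31 and 2.01 in Ctrl), Ntn1, which encodes netrin-1 (4.31 and 7.81 FPKM in ECp53KO cells, 9.51 and 9.05 in Ctrl), and Flrt2, an adhesion ligand of Unc5 receptors (1.96 and 2.56 FPKM in ECp53KO cells, 3.87 and 3.14 in Ctrl). Each had a limma adjusted p of 0.864. The netrin receptor gene Dcc did not exceed 0.0251 FPKM.

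The same held for signal carriers below plexins and Robos. Of 51 effector genes 43 were tested and by limma 0 passed in either direction, while 0 were higher and 1 lower at an unadjusted p under 0.05, against 1.97% and 2.82% of all tested genes. Without overlap, 5 were higher and 8 lower in ECp53KO, against 19.1% and 16.8% of all tested genes, and the median log2 fold change was -0.10. The lower gene was Srgap1, a GTPase-activating protein that binds Robo receptors, at 2.58 and 2.82 FPKM in ECp53KO cells and 6.34 and 4.14 FPKM in Ctrl cells. The log2 fold change came to -0.73 ± 0.24 (SE), with an unadjusted limma p of 0.0283 and an adjusted p of 0.864. Next by p were Mical2, an enzyme of a family that disassembles actin downstream of plexins (8.37 and 14.03 FPKM in ECp53KO cells, 15.7 and 15.9 in Ctrl), and Cd72, a receptor of semaphorin 4D on B cells (1.46 and 0.838 FPKM in ECp53KO cells, 1.74 and 2.40 in Ctrl).

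The small GTPases that plexins act on were abundant in all libraries. Rhoa was at 393 and 342 FPKM in ECp53KO cells and at 329 and 310 in Ctrl. Both its ECp53KO values were above both controls, as for 19.1% of all tested genes. Rras, a GTPase that plexins inactivate, was at 300 and 273 FPKM in ECp53KO cells and at 284 and 257 in Ctrl, with overlap. The limma adjusted p-values of Rhoa and Rras were 0.875 and 0.940.

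Tiam1, an activator of the GTPase Rac, was chosen after its values were seen. It was at 1.08 and 0.822 FPKM in ECp53KO cells and at 0.106 and 0.114 FPKM in Ctrl cells, about 87 and 58 fragments against about 9 and 18. Both ECp53KO libraries were above both controls and close to each other. Its mean was under 1 FPKM, and with no filter it had an unadjusted limma p of 0.00136 and an adjusted p of 0.680 (log2 fold change on the FPKM + 1 scale 0.81, which understates the change at such levels).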

How the data were processed

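RNA of sorted heart endothelial cells was measured in 2 ECp53KO and 2 Ctrl libraries. Per the labels' protocols, libraries were polyadenylated, without strand, and read in pairs. TopHat2 2.1.0, Cufflinks 2.2.1, Trimmomatic 0.36 and the build mm10 are listed, with no roles, in the submitters' processing notes. The gene annotation was not given in the sources used here, nor were filters. The table the authors deposited holds FPKM for 24346 genes in 1 column per library, on which no count test was run.

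Log2(FPKM + 1) of the 11332 genes averaging 1 FPKM or more was tested with limma 3.58.1 (R 4.3.3, intensity trend, two-sided, Benjamini-Hochberg over all genes, threshold 0.05), with 2 residual and 3.15 prior degrees of freedom. The procedure was checked on simulated data. Fold changes are ECp53KO minus Ctrl. The members, lists, alternatives and the naming rule (all members; of related lists the 3 smallest p) were chosen with earlier results of these data known. Outside this rule, Itgb1, Robo2, Xist, Nppa, Dcc, Rhoa and Rras were named after their values were seen. So were Tiam1 and the genes outside the members that were high in 1 library. For depth, the commonest value of FPKM times length was sought in 2171 genes under 0.5 FPKM with 1 GENCODE M21 transcript over 2000 nucleotides, taken as 1 fragment. Fragment numbers are therefore approximate. Lengths are of the longest basic transcript. Gene positions are from RefSeq's table for GRCm38.p6 (of the symbols, 23143 matched directly, 1085 by synonym). An exact 0 can be a failed estimate.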

Additional observations from a re-analysis of the deposited data

How the results depend on the processing

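In every alternative run, 0 members passed in either direction by limma, and the lowest adjusted p of a tested member was 0.305, without ECp53KO_172. In that fit 8 of the 15 had an unadjusted p under 0.05, all lower, but so did 7.98% of all genes, and 7.67% were higher. Its spread rests on the 2 Ctrl libraries, and the lone ECp53KO library is assumed to vary like them. Without ECp53KO_170, where the same assumption holds, 0 of the 15 had such a p, against 3.03% of all genes lower and 1.46% higher. With small RNA loci left out and the length trend removed, a fit added after seeing the data, 2 of the 15 had an unadjusted limma p under 0.05. They were Sema3g (0.0459) and Sema6b (0.0498), both lower, and 4.56% of all genes were lower at that level. Of 195 recomputed fold changes of members, 177 kept their direction and 18 did not. No paired analysis was possible because ECp53KO and Ctrl titles carry different numbers.

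The median log2 fold change of the members (-0.22) ran from -0.51 to 0.050 on leaving out a library. Ranges that crossed 0 in the same way were those of Sema7a (-0.20 to 0.018), Plxnd1 (-0.54 to 0.27), Robo4 (-0.56 to 0.080), Unc5b (-0.28 to 0.35), Sema4c (-0.51 to 0.11), Sema3f (-0.60 to 0.0044), Sema6a (-0.41 to 0.0014), Sema6d (-0.22 to 0.32), Plxna1 (-1.004 to 0.050), Plxnb2 (-0.26 to 0.12) and Ntn4 (-0.63 to 0.19). Sema3g (-0.77 to -0.24), Sema6b (-0.54 to -0.24), Plxna2 (-0.81 to -0.026) and Plxna4 (-0.95 to -0.081) did not change sign. Rescaled to TPM, which moved the median of all genes to -0.091, Unc5b was at -0.079 and Sema6d at -0.059. With the length trend removed Plxnb2 was at 0.022, and also at 0.022 when small RNA loci were left out as well, a fit added after seeing the data. The cause was not tested.

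Over all genes, the count of 3 higher was 5 with a pseudocount of 0.1, 5 with robust shrinkage, 1 with no filter and 1 to 21 without a library. The count of 10 lower was 4 without small RNA loci, 4 with the length trend removed as well, and 12 to 53 without a library. Trp53 passed in 4 alternatives, with limma adjusted p-values of 0.0127 without small RNA loci, 0.00634 with the length trend removed as well, 0.0208 with Xist as a covariate and 0.0412 with robust shrinkage. Over the other alternatives its adjusted p ran from 0.0716 to 0.620. Members under 0.1 FPKM rest on few fragments at these depths.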
